A study of Mus musculus with 6 samples.

Results

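The negative feedback genes of the ERK pathway and its ETS factor genes were described across 6 arrays, 8 genes in all: the Sprouty genes Spry2 and Spry4, the Sprouty-related Spred1 and Spred2, the phosphatase genes Dusp4 and Dusp6, and the ETS factors Etv4 and Etv5. They were taken by name, with every probe that the platform annotation assigns to them, which gave 8 of the 19057 genes and 16 of the 45281 probes on the array. The cells were mouse embryonic stem cells. They carried either a pHYPER vector expressing a short hairpin RNA (shRNA) against Chd9, a chromodomain helicase (the shChd9 group, 3 samples), or a control transfection whose content the labels do not give (3 samples). Both groups grew in foetal bovine serum with leukemia inhibitory factor (LIF) on mouse embryonic fibroblasts inactivated with mitomycin C. Both were electroporated and then selected with puromycin, so what they share cannot be read from their comparison. The study's title concerns the nucleosome specificity and function of chromatin remodellers in such cells. The labels name neither a cell line nor a clone. Since no label states that replicates were grown separately, a p-value here covers the variation among the 6 samples alone, and that variation may be technical. All 6 arrays lay on 1 slide, with the groups in neighbouring blocks of positions, so position and group cannot be told apart.

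In the ERK pathway, a growth factor receptor passes its signal through the small GTPase RAS and the kinases RAF and MEK to the kinase ERK. ERK activity raises the transcription of its own inhibitors. Sprouty and Spred proteins act between the receptor and RAF, while the phosphatases DUSP4 and DUSP6 remove the activating phosphates from ERK, DUSP6 in the cytoplasm and DUSP4 in the nucleus. Etv4 and Etv5 encode ETS-domain transcription factors of the PEA3 group, which are induced along with these inhibitors. In mouse embryonic stem cells, FGF4 made by the cells themselves is a main source of ERK activity, and these genes are widely used as a readout of it.

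ETS factors bind DNA around a GGAA core, and the bases before the transcription start of 3 measured members are shown because Dusp6 and Spred1 hold the word CGGAAG, which contains that core, and Etv5 does not hold this word. Each window is the 250 bases before a start from RefSeq (GRCm38.p6), written 5′ to 3′ on the gene's own strand, with capitals for matches to CGGAAG or its reverse complement CTTCCG. The windows are chr10:99262981-99263230 on the plus strand for Dusp6, chr2:117120821-117121070 on the plus strand for Spred1 and chr16:22439571-22439820 on the minus strand for the more upstream of the 2 Etv5 starts.
Dusp6: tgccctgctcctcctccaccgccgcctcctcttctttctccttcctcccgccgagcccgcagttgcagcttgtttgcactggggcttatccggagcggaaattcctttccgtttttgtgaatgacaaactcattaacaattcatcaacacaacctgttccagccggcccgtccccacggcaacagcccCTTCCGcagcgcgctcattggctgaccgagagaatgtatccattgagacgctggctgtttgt
Spred1: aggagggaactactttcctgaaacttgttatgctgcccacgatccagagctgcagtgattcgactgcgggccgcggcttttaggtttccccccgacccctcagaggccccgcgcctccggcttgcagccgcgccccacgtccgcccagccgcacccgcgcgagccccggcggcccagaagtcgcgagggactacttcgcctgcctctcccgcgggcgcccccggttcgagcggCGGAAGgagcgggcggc
Etv5: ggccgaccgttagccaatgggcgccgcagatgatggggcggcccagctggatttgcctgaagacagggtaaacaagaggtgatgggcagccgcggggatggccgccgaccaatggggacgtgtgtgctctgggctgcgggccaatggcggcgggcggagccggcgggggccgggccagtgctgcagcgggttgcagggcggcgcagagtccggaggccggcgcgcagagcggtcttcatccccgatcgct
The Dusp6 match began 62 bases before the start, on the reverse strand, and the Spred1 match began 17 bases before it, on the forward strand. Windows were found for 5 members, Spry2, Spred1, Spred2, Dusp6 and Etv5, and 3 of their 6 windows held the 6-letter word, as did 13.6% of all 32851 windows. A match is a word in the sequence, and nothing in these data measures binding there.

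The labels and the cell type were checked first, on log2 intensities after background correction and normalization, with fold changes given as shChd9 over control. Chd9, by its brightest probe ILMN_2697954, measured 6.56, 6.32 and 6.64 on the shChd9 arrays, against 7.36, 7.74 and 7.80 on the control arrays, and the groups did not overlap. The log2 fold change was -1.13 ± 0.18 there and -1.11 ± 0.16 on ILMN_1235114, whose groups did not overlap either (SE; limma, adjusted p = 0.540 each over all probes; exact permutation p, two-sided, 0.10 each). A dim Chd9 probe gave 0.35 ± 0.21. All 13 stem cell markers were measured, the brightest being Dppa5a at 15.23 ± 0.02 in shChd9 and 15.20 ± 0.05 in control cells, Esrrb and Dppa4. In log2 fold change by the brightest probe, 7 of the 13 were above 0 and 6 below, between -0.54 for Tdgf1 and 0.24 for Klf4. The split depended on the probe. Dimmer probes lay below 0 for Klf4 (-0.26), Dppa4 (-0.14 and -0.12) and L1td1 (-0.02), whose brightest lay above. Further dimmer probes of Klf4 and Dppa4 lay above 0, at 0.02 and 0.11. The median of the 13 was 0.02, or -0.07 under median scaling. Among the 7 fibroblast genes taken as defining, Col1a1, Thy1 and Dcn were detected on all 6 arrays and Lum on 5, while Col3a1, Col1a2 and Postn were detected on 2, 1 and 0. The brightest fibroblast markers were Ccn2, Timp1 and Bgn, at 0.14, 0.42 and 0.41 in log2 fold change. Of 9 primitive endoderm genes tested, 8 were above 0 with a median of 0.31, which was 0.09 without shChd9 replicate 1 and 0.02 with the fibroblast marker mean as a covariate, the brightest being Lama1 at 0.21, Col4a1 at 0.25 and Col4a2 at 0.90.

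Of the 8 members, 6 were measured. Spry4, Spred1, Dusp4, Dusp6, Etv4 and Etv5 were detected on all 6 arrays by their brightest probe, that is with a detection p-value under 0.05 against the array's negative control beads. Their inclusion therefore did not rest on one group. Spry2, a membrane-associated inhibitor of receptor signalling, was detected by its 1 probe on 1 shChd9 and on 0 control arrays. Spred2, an inhibitor of RAF activation, had 3 probes, of which the best was detected on 1 shChd9 and 1 control array and the others on none. Neither gene was tested. Signals below are log2 intensities after background correction and quantile normalization, and fold changes are shChd9 over control, from limma fitted over all 17719 probes detected on at least 3 arrays. A level of one probe cannot be set against that of another, since probes differ in how well they hybridise.

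All 6 measured members were above 0 in log2 fold change, between 0.16 for Etv4 and 0.47 for Spry4, with a median of 0.22. Over all 10194 genes tested the median was -0.00, and 49.1% were above 0. After Benjamini-Hochberg adjustment over all genes, 0 of the 6 passed the threshold in limma (the smallest adjusted p was 0.941), and 0% of all genes did. At an unadjusted p under 0.05, limma had 2 members, Spry4 and Dusp6, both higher, where 2.22% of all genes were higher at that level. The 95% interval of each member lay within 2-fold in either direction, as it did for 93.1% of all genes. The same arrays also differed in the level of fibroblast markers. Of 29 measured fibroblast markers, chosen to stand for the feeder layer, 28 were above 0 in log2 fold change by their brightest probe. Fn1 was 0.29 there, but -0.08 and -0.23 on its dimmer probes. The defining markers Dcn, Thy1, Col1a1 and Lum gave 0.11, 0.15, 0.39 and 0.51. Of the 29 markers, 4 had an unadjusted p under 0.05 in limma, all higher, and the median of the 29 was 0.39. Leaving out shChd9 replicate 2 gave a median of 0.61, while leaving out shChd9 replicate 1 gave 0.20 and leaving out control replicate 2 gave 0.21. The mean level of these markers ranged from 8.74 to 9.65 on the shChd9 arrays and from 8.39 to 9.24 on the control arrays, so the groups overlapped. The part of this in the members' values was not tested beyond the covariate fits given with them.

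**Figure D1:**
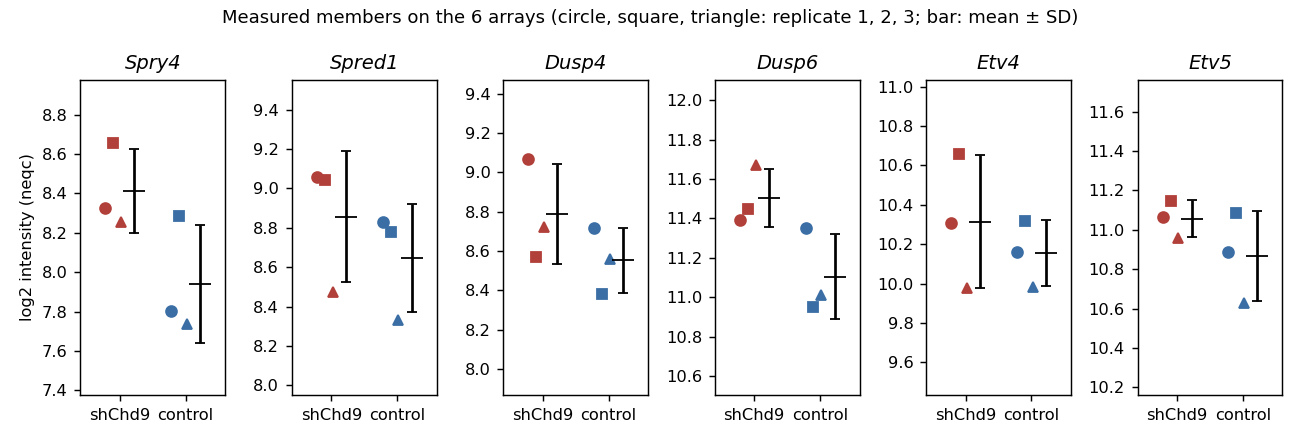
Log2 intensity of the 6 measured members, by the brightest probe of each gene, on the 3 shChd9 arrays (red, left) and the 3 control arrays (blue, right), with the mean and SD of each group in black and every panel spanning the same log2 range. Dusp6 was the 1 gene whose groups did not overlap, with shChd9 arrays between 11.39 and 11.67 and control arrays between 10.95 and 11.35.

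Spry4, the Sprouty gene that was well measured, had the highest fold change of the 6 brightest probes, though without background correction its log2 value of 0.36 was below the 0.39 of Dusp6, and leaving out control replicate 1 also put Dusp6 higher. It measured 8.32, 8.66 and 8.26 on the shChd9 arrays, against 7.80, 8.29 and 7.74 on the control arrays. Control replicate 2 lay between the shChd9 arrays, so the groups overlapped, while the other 2 control arrays lay below all of them. The means were 8.41 ± 0.21 in shChd9 and 7.94 ± 0.30 in control cells (SD, n = 3 each). The fold change was 1.39 with a 95% interval of 1.02 to 1.89, or 0.47 ± 0.20 on the log2 scale (SE; limma, adjusted p = 0.941 over all genes). The exact permutation p, two-sided, was 0.20, where 3 against 3 arrays cannot go below 0.10. The single Spry2 probe measured 4.64, 4.55 and 5.03 on the shChd9 arrays, against 4.30, 4.20 and 4.34 on the control arrays. These groups did not overlap, but all 3 control arrays and 2 of the shChd9 arrays were at background, so no fold change is given.

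Spred1, which keeps RAF from being activated, measured 9.06, 9.04 and 8.47 on the shChd9 arrays, against 8.83, 8.78 and 8.33 on the control arrays. Replicate 3 was the lowest array in both groups, and the groups overlapped. The same pair of arrays had the lowest mean raw intensity of their group, 356 for shChd9 replicate 3 and 383 for control replicate 3, where the others lay between 421 and 464. The part of this in the Spred1 values was not tested. The means were 8.86 ± 0.33 in shChd9 and 8.65 ± 0.27 in control cells (SD, n = 3 each), with a log2 fold change of 0.21 ± 0.22 (SE; limma, adjusted p = 0.957). Leaving out control replicate 3 gave 0.05, and leaving out shChd9 replicate 3 gave 0.40. The brightest Spred2 probe, at background on 4 of the 6 arrays, measured 4.46, 4.97 and 4.76 on the shChd9 arrays, against 4.73, 4.55 and 4.85 on the control arrays.

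Dusp6, the cytoplasmic ERK phosphatase, had the clearest separation of the groups. Its brightest probe, ILMN_2925711, measured 11.39, 11.45 and 11.67 on the shChd9 arrays, against 11.35, 10.95 and 11.01 on the control arrays. Every shChd9 array lay above every control array, though by only a small gap to control replicate 1, and 4.40% of all genes were separated in that direction. The fold change was 1.32 with a 95% interval of 1.01 to 1.73 (limma, adjusted p = 0.942 over all genes; exact permutation p, two-sided, 0.10). A dimmer probe, ILMN_2701321, measured 6.33, 6.38 and 6.31 on the shChd9 arrays, against 5.86, 5.69 and 5.81 on the control arrays. Its groups also stood apart, with a fold change of 1.47 and an interval of 1.17 to 1.84 (limma, adjusted p = 0.908 over all probes; exact permutation p, two-sided, 0.10). That probe is dim, and its log2 fold change of 0.55 was 0.24 without background correction. Before normalization its groups overlapped, at 178, 188 and 149 on the shChd9 arrays, against 153, 143 and 138 on the control arrays. On the remaining probe, ILMN_1248537, control replicate 1 was the highest array at 7.21, and the groups overlapped, with a log2 fold change of 0.35 ± 0.25 (SE). Leaving out control replicate 1 gave 0.62 on that probe and leaving out control replicate 2 gave 0.07, while the value was 0.18 without background correction and 0.11 with the fibroblast covariate described for Dusp4.

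Dusp4, the nuclear phosphatase, measured 9.07, 8.57 and 8.72 on the shChd9 arrays, against 8.72, 8.38 and 8.56 on the control arrays (probe ILMN_2689731). Replicate 1 was highest and replicate 2 lowest in both groups, and the groups overlapped. The log2 fold change was 0.23 ± 0.18 (SE; limma, adjusted p = 0.956 over all genes), and 0.09 without shChd9 replicate 1. Within each group the array order was that of the fibroblast markers, whose mean was 9.65, 8.74 and 9.17 on the shChd9 arrays, against 9.24, 8.39 and 8.83 on the control arrays. Across the 6 arrays, this brightest Dusp4 probe and that mean had Pearson's r = 0.975 (exact permutation p = 0.00556, adjusted over the 6 members compared p = 0.0333). The other Dusp4 probes were not compared with the mean in this way. Spearman's rho was 0.886 (exact permutation p = 0.0333, adjusted p = 0.200). These permutations treat the 6 arrays as exchangeable. Yet same-numbered arrays took the same order in both groups, in this probe and in the marker mean. The permutation p-values may therefore be too small. Without the 2 arrays farthest from the median fibroblast mean, r was 0.969. With that mean as a covariate, the log2 fold change of this brightest Dusp4 probe was 0.06 ± 0.16 (SE). The dimmer probe ILMN_2450767, whose r with the brightest was 0.505, gave 0.46 ± 0.34, and 0.21 ± 0.34 with the covariate. Its highest array was shChd9 replicate 3 at 9.14, without which the value was 0.11. The dimmer probe ILMN_2870965 gave 0.28 ± 0.17, and 0.14 ± 0.17 with the covariate. A probe detected on 2 shChd9 and 0 control arrays, ILMN_2608995, measured 4.95, 5.17 and 4.54 on the shChd9 arrays, against 4.34, 4.78 and 4.65 on the control arrays. Its groups overlapped. With control arrays raised to their own detection floor, the ratio of means was 1.05. That ratio is not a lower bound, since shChd9 replicate 3 was itself at background.

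For the other members, neither Pearson's r nor rho with the fibroblast marker mean had an adjusted permutation p under 0.05. For Dusp4 only Pearson's r did. Pearson's r with the marker mean over the 6 arrays was -0.13 for Spry4 (exact permutation p = 0.818, adjusted 0.931, rho = -0.143 with p = 0.803 and adjusted 0.803), and -0.40 without the 2 outermost arrays. It was 0.592 for Dusp6 (exact permutation p = 0.228, adjusted 0.683, rho = 0.371 with p = 0.497 and adjusted 0.597), and 0.428 without the 2 outermost arrays. Spred1, Etv4 and Etv5 gave r between -0.24 and 0.23 with an exact permutation p of at least 0.646 and an adjusted p of 0.931. Their rho lay between -0.43 and 0.371 (exact permutation p at least 0.419, adjusted 0.597), and their r without the 2 outermost arrays between -0.56 and -0.08. In bulk RNA, fewer cells of a type and less RNA per cell cannot be told apart. With the marker mean as a covariate, the log2 fold changes were 0.64 ± 0.19 for Spry4 and 0.34 ± 0.19 for Dusp6 (SE; limma, adjusted p = 0.980 and 0.999 over all genes). Without it they were 0.47 and 0.40. Etv4 and Etv5 gave 0.27 ± 0.22 and 0.25 ± 0.19 with the covariate (SE), against 0.16 and 0.19 without it.

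**Figure D2:**
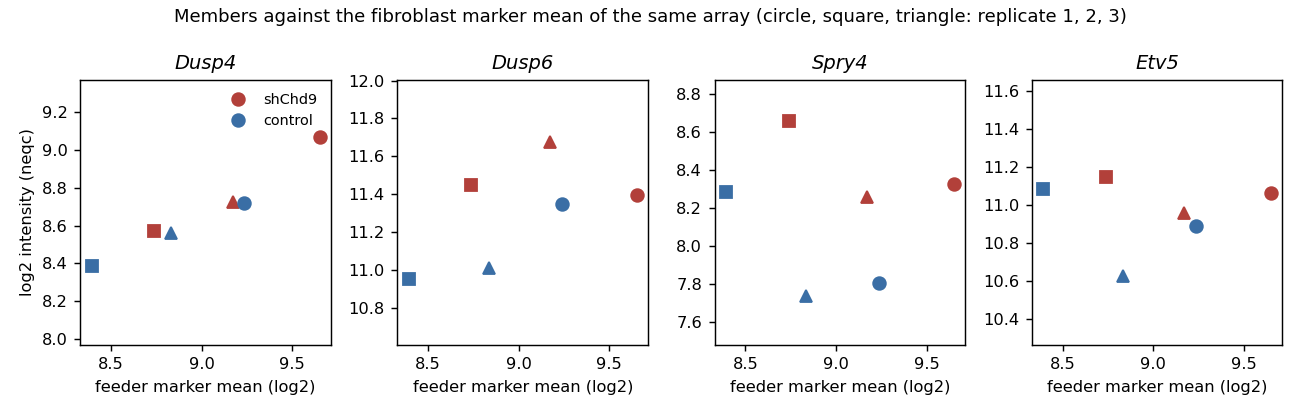
Log2 intensity of Dusp4, Dusp6, Spry4 and Etv5 (vertical axis) against the mean log2 intensity of 29 fibroblast markers on the same array (horizontal axis), for shChd9 (red) and control (blue) arrays. Dusp4, by its brightest probe, is higher where the marker mean is higher, at r = 0.975, while Spry4 shows no such order, at r = -0.13.

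Etv4 and Etv5, the PEA3-group factors, had the smallest fold changes. Etv4 measured 10.31, 10.66 and 9.98 on the shChd9 arrays, against 10.16, 10.32 and 9.98 on the control arrays. Replicate 2 was highest and replicate 3 lowest in both groups, and the lowest arrays of the groups were level. The log2 fold change was 0.16 ± 0.20 (SE; limma, adjusted p = 0.963), and -0.01 without shChd9 replicate 2. Etv5 measured 11.06, 11.15 and 10.96 on the shChd9 arrays, against 10.89, 11.08 and 10.63 on the control arrays, with overlapping groups and a log2 fold change of 0.19 ± 0.17 (SE; limma, adjusted p = 0.956). Leaving out control replicate 3 gave 0.07. Its dimmer probe ILMN_2938047 gave 0.10 ± 0.20, and -0.04 without shChd9 replicate 2.

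The 3 members with several tested probes, Dusp4, Dusp6 and Etv5, had all of their probes on the same side. Over all genes with several tested probes, 55.6% had probes of 1 sign. In all, 11 of 11 tested member probes were above 0 in log2 fold change, their median being 0.28, against 49.2% of all probes tested. Probes of 1 gene share their samples and are not separate evidence. At an unadjusted p under 0.05 in limma there were 3 member probes, all higher, where 2.35% of all probes were. Of these, 2, both of Dusp6, had groups that did not overlap, where 4.52% of all probes were separated in that direction. Across the 6 arrays, r between probes of 1 gene lay between 0.505 for a Dusp4 pair and 0.844 for the Etv5 pair, a description over 6 points that include both groups.

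**Figure D3:**
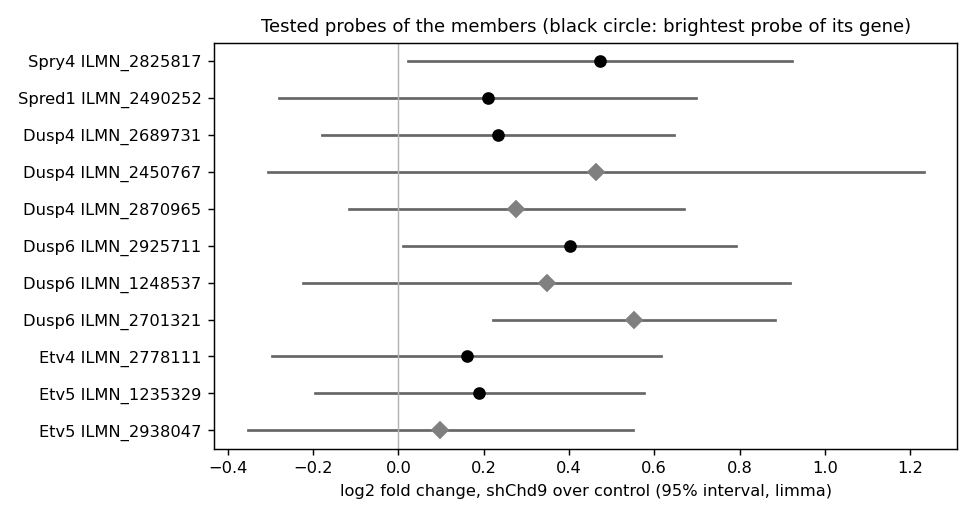
Log2 fold change (shChd9 over control) with its 95% interval from limma for the 11 tested probes, with black circles for the brightest probe of each gene and grey diamonds for its other probes. All points lie to the right of 0, and 3 intervals, those of Spry4 and of 2 Dusp6 probes, do not reach it.

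Among themselves the members varied in how alike they were over the arrays, and 14 of the 15 pairs had r above 0. Spry4, Spred1, Etv4 and Etv5 had pairwise r between 0.622 and 0.891 over the 6 arrays, the highest for Spry4 with Etv5. Dusp4 had r between -0.09 and 0.096 with Spry4, Etv4 and Etv5, 0.35 with Spred1 and 0.558 with Dusp6. Dusp6 had r of 0.387 with Spry4, 0.332 with Etv5, 0.205 with Spred1 and 0.0354 with Etv4. These values are descriptions over 6 arrays with the groups pooled. The genes whose pattern was most like the members' mean deviation were Nfib (r = 0.992), a transcription factor, Khdrbs1 (0.983), an RNA-binding protein gene, Ercc8 (0.978), a DNA repair gene, Sys1 (0.977) and Gzf1 (0.976), among 8648 genes detected on all 6 arrays. Of these 5, 0 passed the threshold in limma, with 0.954 the smallest adjusted p, and the mean over all Nfib probes had a log2 fold change of -0.05, against 0.30 for the brightest.

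The other measured genes of the same families, Spry3 apart, lay within their error of 0 by their brightest probe in the fit without a covariate. Of 10 relatives 7 were tested, 2 of them above 0 and 5 below, with a median log2 fold change of -0.03, and 0 reached an unadjusted p under 0.05 in limma, where 5.14% of all genes did (the smallest adjusted p was 0.954). Spred3 and Dusp9 were not detected on enough arrays to be tested, and Spry1 was not analysed here. Spry3, near background and detected on 2 shChd9 arrays and 1 control array, measured 0.46 ± 0.22 (SE). The MAP kinase phosphatase genes gave 0.04 ± 0.18 for Dusp5, -0.01 ± 0.19 for Dusp1, -0.03 ± 0.30 for Dusp7 and -0.04 ± 0.20 for Dusp2. The PEA3-group factor Etv1 measured -0.10 ± 0.26, and Il17rd, a membrane inhibitor of FGF signalling, measured -0.07 ± 0.38. The Spry3 value was 0.14 without background correction. The Dusp1, Dusp2 and Dusp7 values were above 0 under median scaling, and Dusp2 and Il17rd were with a gene's probes averaged, at 0.09 and 0.07. With the fibroblast marker mean as a covariate, Dusp7 measured -0.44 ± 0.18 (SE; limma, adjusted p = 0.980 over all genes). The relatives' median was 0.08 without shChd9 replicate 3, 0.03 under median scaling and 0.04 with probes averaged, so its side of 0 was not stable. Whether members and relatives differ was not tested.

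Among the FGF, adaptor, RAS, RAF, MEK and ERK genes, 0 passed the adjusted threshold in limma. Of them 3, named here, had an unadjusted p under 0.05 in limma, as did 5.14% of all genes. Of 9 FGF ligands and receptors tested, 3 were above 0 and 6 below, with a median of -0.09 that was 0.15 without shChd9 replicate 3. The receptor gene Fgfr1 measured 6.06, 5.77 and 5.80 on the shChd9 arrays, against 5.43, 5.10 and 5.46 on the control arrays. Its groups did not overlap, where 4.40% of all genes were separated in that direction. Its log2 fold change was 0.55 ± 0.17 (SE; limma, adjusted p = 0.924), 0.42 ± 0.17 with the fibroblast marker mean as a covariate and 0.19 without background correction. Fgfrl1, a receptor without a kinase domain, measured 0.56 ± 0.22 (SE; limma, adjusted p = 0.924), and 0.29 without background correction. Fgf4, the ligand of these cells, which was added after its values were seen, measured -0.09 ± 0.24. Of 15 genes tested from the adaptors through RAS, RAF and MEK to ERK and their regulators, 7 were above 0 and 8 below, with a median of -0.03 that was 0.06 without control replicate 3. Sos2, an activator of RAS, was near background, detected on 1 shChd9 and 3 control arrays, and measured -0.44 ± 0.16 (SE; limma, adjusted p = 0.924), and -0.13 without background correction.

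Downstream, 16 of 19 other ERK-responsive genes tested were above 0 by their brightest probe. By limma 0 of these probes reached an unadjusted p under 0.05, where 5.14% of all genes did. A dimmer Srf probe gave 0.46 ± 0.16 (SE), against 0.11 for the brightest. The median log2 fold change of the 19 was 0.26. Leaving out shChd9 replicate 1 gave a median of 0.11, and leaving out control replicate 2 gave 0.15. It was 0.13 without background correction and 0.16 with the fibroblast marker mean as a covariate. Hbegf, an EGF receptor ligand, measured 0.35 ± 0.15, and Phlda1 measured 0.51 ± 0.24 (SE; limma, adjusted p = 0.954 each). Hbegf was the 1 gene of these 19 whose groups did not overlap, where 4.40% of all genes were separated in that direction. With the fibroblast covariate the Phlda1 value was 0.27. Of 8 ETS factors outside the PEA3 group, 6 were above 0 with a median of 0.13, while Gabpa measured -0.25 ± 0.18, and -0.13 with the fibroblast covariate. Elk3, near background and detected on 3 shChd9 and 2 control arrays, measured 0.37 ± 0.18, and 0.11 without background correction. The median of these ETS factors was -0.03 without shChd9 replicate 3 and 0.07 without background correction.

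**Figure D4:**
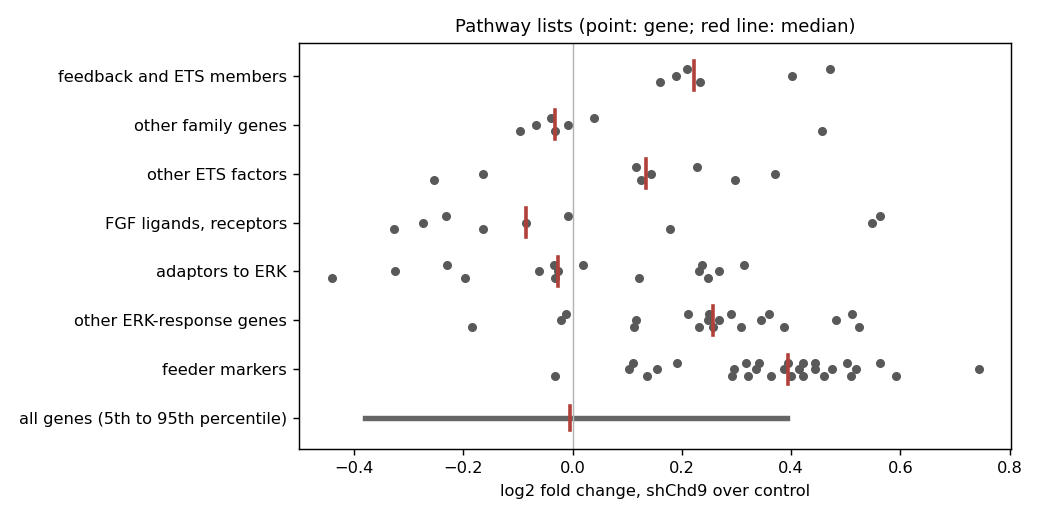
Log2 fold change (shChd9 over control) of each tested gene in the pathway lists, 1 point a gene, with the median of each list as a red line and the range of all genes from the 5th to the 95th percentile as a grey bar. The 6 members lie between 0.16 and 0.47, and the fibroblast markers have the highest median, 0.39.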

How the data were processed

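Embryonic stem cell RNA was measured on 6 Illumina bead arrays, 3 shChd9 and 3 control, grouped by the transfection in the labels. Replicates were numbered in deposit order. The labels do not say whether samples were paired, and all were treated as unpaired. Per the file headers, the deposited table gives every one of 45281 probes a linear intensity and its detection p-value, not normalized between arrays. The deposited series table holds intensities that differed from the quantile-normalized values of the first table by at most 1.59 intensity units, or 1.19% of a value. The submitters' processing notes name GenomeStudio. Settings, versions and a genome build were not given in the sources used here.

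Intensities were background corrected, quantile normalized and log2 transformed with neqc of limma 3.58.1 in R 4.3.3 (offset 16). The 17719 probes whose detection p-value was below 0.05 on 3 or more arrays entered lmFit and eBayes (two-sided). Benjamini-Hochberg adjustment ran over all of these probes, or over 10194 genes, each represented by its brightest probe, at a threshold of 0.05. Symbols came from GEO's platform annotation, updated through Entrez identifiers. The test was tested on simulated data. Raw mean intensities were 356 to 464 and 39.2% to 40.8% of probes were detected per array. The number of arrays limits the precision.

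Members and gene lists were chosen with earlier results of these data known. Named were all members and tested relatives, in each other pathway list up to 4 genes with an unadjusted p under 0.05 or else the 2 smallest, the 5 genes most correlated with the members' mean, Chd9, the 3 brightest markers of each cell type, and Fgf4. Some genes of the lists were not analysed here. Alternatives were other background corrections, median scaling, the deposited normalized table, other filters on dim probes, the mean of a gene's probes, the fibroblast marker mean as a covariate, and leaving out each array.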

Additional observations from a re-analysis of the deposited data

How the results depend on the processing

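Of 227 member gene and probe values under the alternatives, 223 were above 0 and 0 passed the threshold (limma, adjusted p between 0.624 and 1.00). The number of members and of all genes past the threshold was 0 under each alternative. The median over the measured members was between 0.19 and 0.28 under the alternatives that kept all arrays, and between 0.16 and 0.32 with 1 array left out. The 4 member values below 0 all arose with an array left out, where Etv4, through its 1 tested probe, ranged from -0.0107 to 0.33 and Etv5 probe ILMN_2938047 from -0.0358 to 0.26. With 1 array left out, between 5 and 6 measured members and between 9 and 11 member probes were above 0. Under median scaling Dusp1, Dusp2, Dusp7 and Dppa5a were 0.0349, 0.00834, 0.0296 and -0.0748. With a gene's probes averaged, Dusp2, Il17rd, Dppa4 and Nfib were 0.0912, 0.0715, -0.0175 and -0.0495. With the fibroblast marker mean as a covariate, Dusp1 and Fgf4 were 0.0490 and 0.0220. The cause of these changes of sign was not tested. With 1 array left out, log2 fold changes ranged from -0.17 to 0.12 for Dusp1, from -0.15 to 0.17 for Dusp2, from -0.0638 to 0.20 for Dusp5, from -0.32 to 0.23 for Dusp7, from -0.33 to 0.11 for Etv1, from -0.39 to 0.29 for Il17rd, from -0.27 to 0.15 for Fgf4, from -0.0480 to 0.0904 for Esrrb and from -0.00271 to 0.17 for Dppa4. No paired analysis was made because the labels give no replicate numbers shared between groups. Arrays with the same number were alike in some fibroblast markers, such as Lum. It measured 8.75, 5.30 and 5.84 on the shChd9 arrays, against 8.16, 4.76 and 5.45 on the control arrays. Whether such arrays form pairs was not tested, and the p-values here treat all arrays as unpaired. Spry2 and Spred2 were too near background to be measured.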
